A study of Mus musculus with 6 samples.

Results

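The giant cadherins of the Fat and Dachsous families were followed in cultured mouse cochleae with and without neomycin. They are represented by 7 gene symbols: Fat1, Fat2, Fat3 and Fat4, Dchs1 and Dchs2, and Fjx1. The members were chosen by name. Of the 7, 6 have a row in the table of 24421 symbols and all 6 passed the filter on low counts that left 15988 genes for testing. Dchs2 was not analysed here.

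RNA was sequenced from cochleae of wild-type mice at postnatal day 2, kept in culture as explants. All groups were cultured for 12 h before treatment and for 5 days after it, with the nucleoside analogue EdU at 10 μM to label dividing cells. The neomycin group received 1 mM neomycin, an aminoglycoside that kills hair cells (HCs), over 6 h. The control group is taken as explants without neomycin, from the sample titles and the treatment label. The protocol text of the samples names neomycin for all 6 of them. Each group had 3 samples, and each sample was a pool of 6 to 8 cochleae, so a value is an average over the cell types left in several organs. By the paper's methods, the modiolus, the tectorial membrane and the anlage of the stria vascularis were taken off at dissection. Whether the pools came from separate litters or culture days is not stated, so p-values measure only the spread between these pools.

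Fat and Dachsous proteins are single-pass membrane proteins whose outer part is a very long chain of cadherin repeats. Fat4 and Dchs1 bind each other across the border between neighboring cells, and their relatives in the fly orient cells within an epithelial sheet and restrain growth through the Hippo kinases. Fjx1 is the mouse relative of four-jointed, a fly kinase of the Golgi that phosphorylates cadherin repeats and tunes this binding. In the mouse cochlea, loss of Fat4 is known to disturb the alignment of HCs.

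No gene of the 6 passed both thresholds for differential expression, namely a fold change over 1.5 with an adjusted p-value under 0.05. The share of all genes tested that passed both was 8.84% (6.60% lower and 2.24% higher). The p-values are from the quasi-likelihood test of edgeR, with the Benjamini-Hochberg adjustment made over all genes tested. The number of the 6 that passed both was 0 by DESeq2 too. In both fits no member reached that fold change, whatever its p-value. On the adjusted p-value alone, 3 of the 6 passed. Fat1 and Dchs1 fell and Fjx1 rose, where 29.0% of all genes tested passed (16.1% lower and 12.9% higher). The values of the control and neomycin samples did not overlap for the same 3 genes, and 43.5% of all genes tested share that property. The median log2 fold change (log2FC, neomycin against control) was -0.28 over the 6 genes and -0.0041 over all genes tested. The median of the 6 was -0.010 with each sample's trend on gene length removed and -0.10 without control replicate 1. With the length trend removed, Fjx1 alone of the 6 had an adjusted p-value under 0.05.

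Values of a group are given in the order of its replicates 1, 2 and 3. Total counts ran from 50471116 to 66068108 per sample. Control replicate 1 was the deepest library and held the highest value of Fat1, Fat3, Fat4 and Dchs1. Long genes took a larger share of the reads in the control samples than after neomycin. The slope of a gene's log2 level, relative to its mean over the samples, on the log10 of its exon length was 0.38, 0.25 and -0.0038 in control. After neomycin it was -0.076, -0.23 and -0.31. The groups did not overlap in this slope, so a technical trend and a response to neomycin that goes with gene length cannot be told apart. Removing the trend would remove both, and its cause was not tested. The exons of every cadherin described here are far longer than the median of 3.26 kb over the symbols with an annotated length. Of 12 HC marker genes, 11 had an adjusted p-value under 0.05 and were lower after neomycin, against 16.1% of all genes tested. The outer HC motor protein gene Slc26a5 led them with a log2FC of -3.99. The summed level of the HC markers was 764 to 874 CPM (the count scaled to library size by TMM) in control and 250.3 to 309 CPM after neomycin. The paper's own counts of Myosin7a-positive cells showed HC loss after neomycin, significant in the middle and basal turns. From the RNA of pooled explants alone, fewer cells of a type and less RNA per cell cannot be told apart. This holds here and in every result that follows.

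Fat1 is the most abundant of these cadherins and is known to shape the actin skeleton at cell contacts. It lies on chromosome 8 of mm10 from 44935447 to 45052257, with 29 exons in its longest coding transcript and 15.7 kb of exon. Fat1 had 163, 149 and 114 CPM in the control samples. After neomycin it had 107, 98.5 and 106 CPM. Control replicate 3 stood next to the neomycin samples, 6.33 CPM above the highest of them, while the other control samples stood well apart. The means were 142 ± 25.3 CPM in control and 104 ± 4.82 CPM after neomycin (SD, n = 3), so Fat1 fell by 26.5%. Its log2FC was -0.45 ± 0.11 (SE, edgeR adjusted p = 0.0107).

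The adjusted p-value of Fat1 was no longer under 0.05 with the length trend removed or with some single samples left out. At its exon length, the fitted length trend differed by -0.25 (log2) between the groups. With that trend removed, the log2FC of Fat1 was -0.18 (edgeR adjusted p = 0.0947), and -0.18 with the replicate number added as a block (edgeR adjusted p = 0.0812). Left out one at a time, control replicate 2 gave -0.40 (edgeR adjusted p = 0.0536) and neomycin replicate 2 gave -0.41 (edgeR adjusted p = 0.0612). The value was -0.33 without control replicate 1 (edgeR adjusted p = 0.0350). An antisense gene, Gm2366, shares exon bases with Fat1, and reads of both strands cannot be told apart where the strand setting of the counting is not stated.

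**Figure D1:**
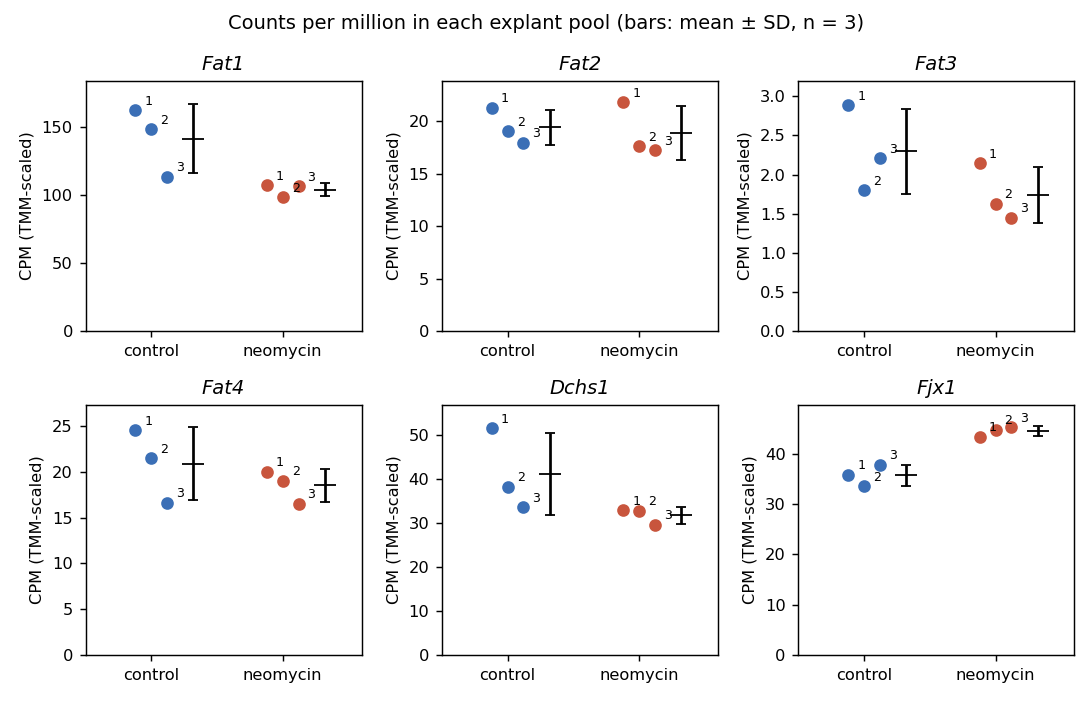
Level of the 6 genes in each sample (y axis, TMM-scaled CPM from 0, replicate numbers beside the points), with the group mean and SD to the right of the points (n = 3). The control and neomycin points of Fat1, Dchs1 and Fjx1 do not overlap, and the gap in Dchs1 is 0.789 CPM.

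The sequence around an annotated transcript start is shown for Fat1, which passed the test on the adjusted p-value, and for Fat2 and Fat4, long relatives that did not. The sequences are those of RefSeq on GRCm38.p6, from 250 bases before to 50 bases after a transcript start, read 5′ to 3′ on the strand of the gene. Capitals mark GGAATG, the core of the element that TEAD factors bind at the end of the Hippo pathway, searched on both strands with CATTCC. The Fat1 window is chr8:44949958-44950257 on the plus strand, the Fat2 window is chr11:55312208-55312507 on the minus strand, and the Fat4 window is chr3:38886690-38886989 on the plus strand.
Fat1: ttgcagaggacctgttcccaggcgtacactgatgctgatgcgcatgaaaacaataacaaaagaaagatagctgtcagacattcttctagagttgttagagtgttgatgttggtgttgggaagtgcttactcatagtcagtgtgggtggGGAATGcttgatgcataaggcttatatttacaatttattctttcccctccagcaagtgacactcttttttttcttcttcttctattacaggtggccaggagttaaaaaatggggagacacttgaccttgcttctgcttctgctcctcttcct
Fat2: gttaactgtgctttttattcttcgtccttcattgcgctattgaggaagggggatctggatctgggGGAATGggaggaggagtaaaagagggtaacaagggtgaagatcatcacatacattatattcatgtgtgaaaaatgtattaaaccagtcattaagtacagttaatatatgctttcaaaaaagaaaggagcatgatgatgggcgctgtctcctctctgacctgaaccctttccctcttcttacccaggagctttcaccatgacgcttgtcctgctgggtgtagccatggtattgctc
Fat4: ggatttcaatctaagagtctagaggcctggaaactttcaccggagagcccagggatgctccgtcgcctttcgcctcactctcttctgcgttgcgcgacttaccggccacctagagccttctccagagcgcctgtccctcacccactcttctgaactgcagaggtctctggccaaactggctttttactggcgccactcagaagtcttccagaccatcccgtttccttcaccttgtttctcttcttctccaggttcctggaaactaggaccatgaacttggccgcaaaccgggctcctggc
The start used for Fat1 lies 14761 bases inside the outermost start that GENCODE gives, and that of Fat2 24307 bases, while that of Fat4 is the outermost one. The Fat1 and Fat2 windows thus lie within the span of their genes and may not be their promoters. Of the 5 members with a window, Fat1 and Fat2 held the motif once each and Fat3, Fat4 and Dchs2 did not. It occurred in 14.7% of the 32851 windows searched, taken around transcript starts in the same way. A match gives letters only, and which start the explants used was not measured.

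Fat4 is the receptor that Dchs1 binds. It lies on chromosome 3 from 38886940 to 39011985, with 17 exons and 17.2 kb of exon. Fat4 had 24.6, 21.5 and 16.6 CPM in the control samples against 20.1, 19.0 and 16.6 CPM in the neomycin samples. The groups overlapped, and the lowest control sample was level with the lowest neomycin sample. The means were 20.9 ± 4.01 and 18.5 ± 1.801 CPM (SD, n = 3), with a log2FC of -0.17 ± 0.13 (SE, edgeR adjusted p = 0.346). With the length trend removed the sign turned, to 0.10 ± 0.10 (SE, edgeR adjusted p = 0.513). Antisense genes, C230034O21Rik at the 5′ end and Gm43539 near the 3′ end, share exon bases with Fat4.

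Dchs1 is the ligand of the pair. It lies on chromosome 7 from 105752990 to 105787654, with 21 exons and 11.1 kb of exon. Dchs1 had 51.5, 38.2 and 33.6 CPM in the control samples against 32.8, 32.8 and 29.5 CPM in the neomycin samples. Only control replicate 1 stood clearly above the rest, and the groups were separated by 0.789 CPM. The means were 41.1 ± 9.32 and 31.7 ± 1.88 CPM (SD, n = 3). Dchs1 fell by 22.9%, a log2FC of -0.38 ± 0.13 (SE, edgeR adjusted p = 0.0458). Without control replicate 1 the log2FC was -0.17 (edgeR adjusted p = 0.213), and with the length trend removed it was also -0.17 (edgeR adjusted p = 0.268). Leaving out control replicate 2 or neomycin replicate 1, 2 or 3 left the log2FC between -0.42 and -0.33, with adjusted p-values of 0.0753, 0.0587, 0.104 and 0.135 in that order (edgeR). Without control replicate 3 it was -0.49 (edgeR adjusted p = 0.00828). The pseudogene Gm15645, on the opposite strand, shares exon bases with Dchs1 and had 0 to 1 counts per sample.

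Fjx1 encodes the four-jointed relative and is the one short gene of the group, a single exon of 3.13 kb on chromosome 2 from 102449366 to 102452499. It had 35.8, 33.6 and 37.8 CPM in the control samples against 43.4, 44.8 and 45.3 CPM in the neomycin samples. All 3 neomycin samples lay above all 3 control samples, by at least 5.58 CPM. The means were 35.7 ± 2.11 and 44.5 ± 0.987 CPM (SD, n = 3), a rise of 24.4% and a log2FC of 0.32 ± 0.07 (SE, edgeR adjusted p = 0.00839). The length trend at its exon length was 0.07, and with the trend removed the log2FC was 0.24 ± 0.07 (SE, edgeR adjusted p = 0.0178). With any 1 of the 6 samples left out, it stayed between 0.28 and 0.37, with adjusted p-values from 0.00442 to 0.0471 (edgeR).

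Fat2, known for its place on the parallel fibers of cerebellar granule cells, was at about the level of Fat4. It lies on chromosome 11 from 55250609 to 55336564, with 24 exons and 14.5 kb of exon. Fat2 had 21.2, 19.0 and 17.9 CPM in the control samples against 21.8, 17.6 and 17.2 CPM in the neomycin samples. The ranges of the groups nearly coincided. Its log2FC was -0.04 ± 0.11 (SE, edgeR adjusted p = 0.805) and, with the length trend removed, 0.20 ± 0.09 (SE, edgeR adjusted p = 0.142).

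Fat3, which shapes the dendrites of amacrine cells in the retina, was the scarcest, with 78 to 199 counts per sample. It spans 591 kb of chromosome 9 from 15910189 to 16501285 and has the longest exons of the group, 21.5 kb. Its values were 2.88, 1.802 and 2.21 CPM in the control samples against 2.15, 1.63 and 1.45 CPM in the neomycin samples. The groups overlapped. The log2FC was -0.40 ± 0.26 (SE, edgeR adjusted p = 0.269) and, with the length trend removed, -0.12 ± 0.25 (SE, edgeR adjusted p = 0.779). The standard error was the largest of the 6 genes.

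**Figure D2:**
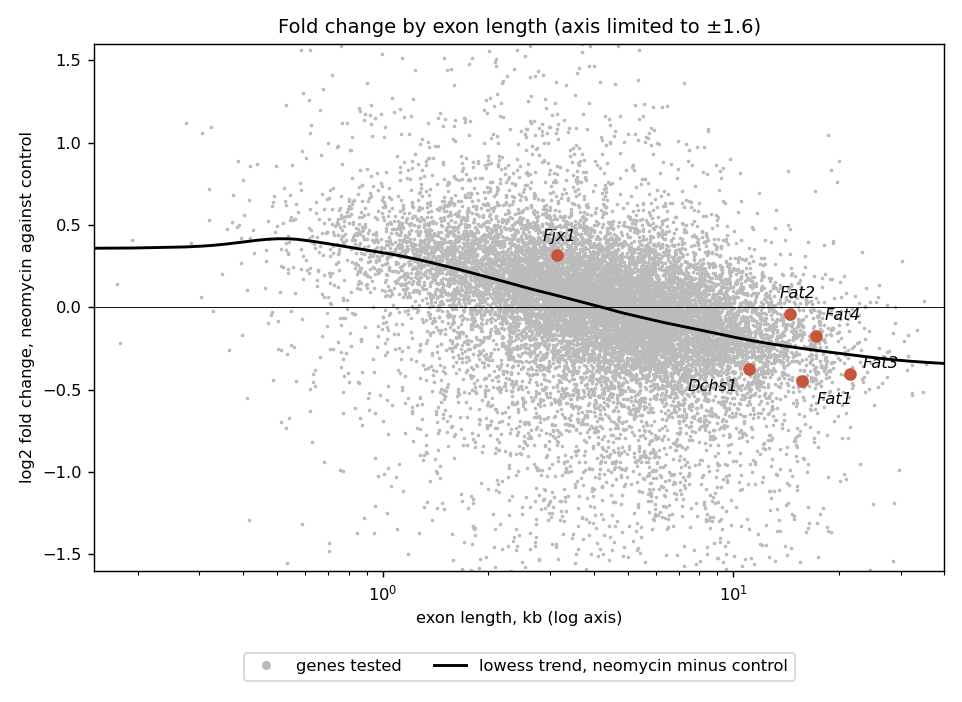
Log2FC of every gene tested that has an annotated exon length (y axis, limited to ±1.6) against exon length in kb (x axis, log scale), with the lowess trend as a line and the 6 genes as large points. The trend falls from short to long genes and passes -0.25 at the length of Fat1, with Fat2 and Fat4 above the line and Fat1, Fat3 and Dchs1 below it.

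Levels of different genes are compared per kb of exon. On that scale, the control means were 11.4 ± 0.674 CPM for Fjx1, 9.05 ± 1.62 for Fat1, 3.72 ± 0.843 for Dchs1, 1.34 ± 0.116 for Fat2, 1.22 ± 0.233 for Fat4 and 0.107 ± 0.0254 for Fat3 (SD, n = 3). The order of the means was the same after neomycin, with 14.2 ± 0.315 for Fjx1, 6.65 ± 0.308 for Fat1, 2.87 ± 0.170 for Dchs1, 1.30 ± 0.174 for Fat2, 1.0804 ± 0.105 for Fat4 and 0.0811 ± 0.0168 for Fat3. Fat2 and Fat4 did not differ beyond their spread in control, where their ranges overlapped. After neomycin their ranges were narrowly separate, with 1.18 as the lowest value of Fat2 and 1.17 as the highest of Fat4. Every other pair of neighbors in the order had separate ranges in both groups. Reads per kb take no account of how evenly such long transcripts were covered.

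**Figure D3:**
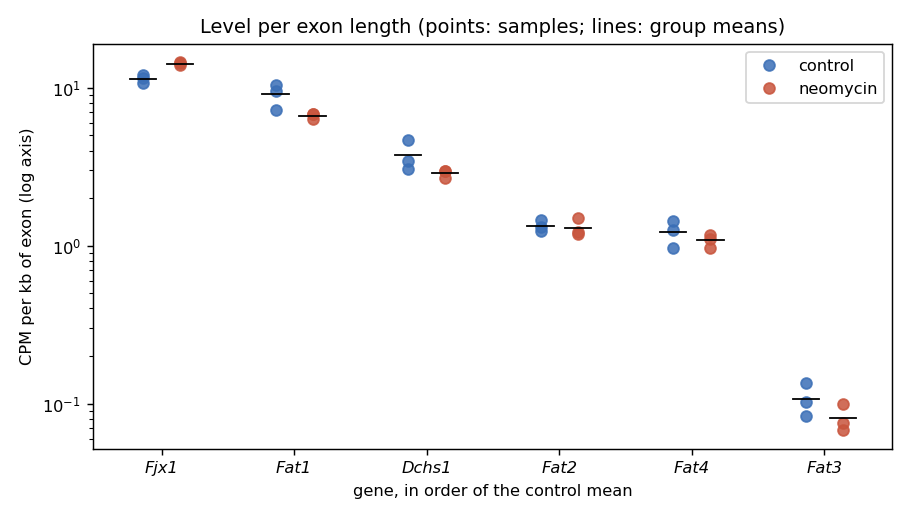
CPM per kb of exon (y axis, log scale) for the 6 genes in order of the control mean, with a point per sample and a line at each group mean. Fat1 and Fjx1 lie at the top, between 6.29 and 14.5 CPM per kb, and Fat3 lies at the bottom, at 0.134 or less.

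Fat1 made up most of the reads of the 5 cadherins. In control it held 61.9%, 64.9% and 61.7% of their counts, and after neomycin 58.3%, 58.1% and 62.2%, so the groups overlapped. Together the 5 cadherins had 263, 229 and 184 CPM in the control samples and 184, 169.6 and 171 CPM after neomycin, where control replicate 3 was level with neomycin replicate 1.

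Ratios between members within a sample need no scaling of the libraries, and 3 of them were tested. The log2 ratio of Fat1 to Fat4, genes of similar length, was 2.73, 2.79 and 2.77 in control and 2.42, 2.37 and 2.69 in the neomycin samples. All control samples lay above all neomycin samples, and the means differed by -0.27 (exact two-sided permutation test, p = 0.1, the smallest that 3 samples against 3 allow, adjusted over 3 ratios p = 0.15). The log2 ratio of Fjx1 to Dchs1 was -0.52, -0.19 and 0.17 in control and 0.40, 0.45 and 0.62 after neomycin, a difference of 0.67 with separate groups (exact two-sided permutation test, p = 0.1, adjusted p = 0.15). These genes differ in length, so the length trend enters that ratio. For the receptor against the ligand, the log2 ratio of Fat4 to Dchs1 was -1.07, -0.83 and -1.01 in control and -0.71, -0.78 and -0.84 after neomycin, and the groups overlapped (difference 0.19, exact two-sided permutation test, p = 0.2, adjusted p = 0.2).

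A further ratio was chosen after the values were seen and has no test. The log2 ratio of Fat1 to Fat2, again genes of similar length, was 2.94, 2.97 and 2.66 in control and 2.30, 2.48 and 2.63 after neomycin. Control replicate 3 and neomycin replicate 3 differed little in it.

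**Figure D4:**
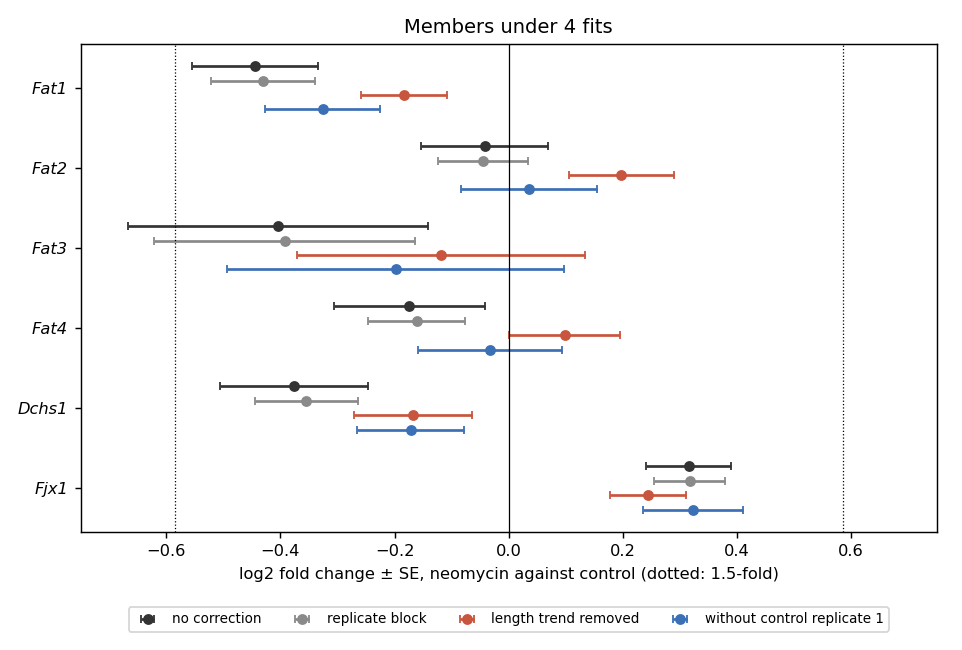
Log2FC of neomycin against control with its standard error (x axis) for the 6 genes (y axis) under 4 fits of edgeR, with dotted lines at a fold change of 1.5. No point passes the dotted lines, Fjx1 is above 0 in all 4 fits, and Fat1 moves from -0.45 to -0.18 when the length trend is removed.

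Genes known or proposed to act with Fat and Dachsous were followed in a list of 20 genes. None was differentially expressed at a fold change over 1.5, against 8.84% of all genes tested. On the adjusted p-value alone, 5 of the 20 fell and 0 rose, against 16.1% of all genes tested lower and 12.9% higher, and the median log2FC was -0.15 (-0.07 with the length trend removed). The 5 became 2 without control replicate 2 or neomycin replicate 3 and 3 without neomycin replicate 2. They became 9 with the replicate block, 8 with total counts scaling, and 2 lower and 1 higher with the length trend removed. The 5 in the unaltered fit, named after their values were seen, were Amotl1, Mpdz, Homer1, Atn1 and Rere. Amotl1, a junctional protein of the angiomotin family that binds YAP, fell from 101 to 76.8 CPM, a log2FC of -0.40 (edgeR adjusted p = 0.00795). Mpdz, a scaffold of tight junctions, had -0.39 (edgeR adjusted p = 0.00534), and Homer1, a synaptic scaffold, had -0.39 (edgeR adjusted p = 0.0114). The atrophin genes Atn1 and Rere, relatives of the fly co-repressor that binds the Fat tail, had -0.28 (edgeR adjusted p = 0.0268) and -0.20 (edgeR adjusted p = 0.0473). With the length trend removed, Atn1 kept an adjusted p-value under 0.05 (0.0284, edgeR), while those of Amotl1, Mpdz, Homer1 and Rere were 0.0530, 0.0621, 0.153 and 0.600 (edgeR). Enah and Vasp, actin regulators that the Fat1 tail binds, were looked up for that reason and had -0.04 and -0.09 (adjusted p = 0.695 and 0.317, edgeR). With the length trend removed both passed in opposite directions, Enah with 0.24 (edgeR adjusted p = 0.0379) and Vasp with -0.21 (edgeR adjusted p = 0.0338).

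In the Hippo pathway, which the fly Fat protein feeds into, 5 of 18 genes were differentially expressed and all 5 were lower. Of all genes tested, 6.60% were lower and 2.24% higher at both thresholds. On the adjusted p-value alone, 10 of the 18 fell and 0 rose, against 16.1% of all genes tested lower and 12.9% higher. The median log2FC of the list was -0.32 (-0.23 with the length trend removed). Mob1a and Mob1b, co-activators of the LATS kinases, fell with log2FC values of -0.98 (edgeR adjusted p = 0.000539) and -0.81 (edgeR adjusted p = 0.00157). Nf2, the merlin tumor suppressor upstream of the kinases, fell from 174 ± 12.9 to 97.5 ± 12.5 CPM (SD, n = 3), with a log2FC of -0.83 (edgeR adjusted p = 0.000101). Wwc2, a scaffold of the kinases, had -0.73 (edgeR adjusted p = 0.000460) and the kinase Lats2 had -0.59 (edgeR adjusted p = 0.000762). With the length trend removed these 5 had log2FC values between -0.95 and -0.48 and adjusted p-values under 0.05, but those of Mob1b, Wwc2 and Lats2 (-0.56, -0.50 and -0.48) no longer reached a fold change of 1.5.

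Core planar cell polarity genes, which align HC bundles through a separate set of membrane proteins, were followed in a list of 16. In this list 2 genes were differentially expressed, both lower: Celsr3, a cadherin with 7 membrane passes, with a log2FC of -1.44 ± 0.22 (SE, edgeR adjusted p = 0.000808), and Dvl3, a cytoplasmic adaptor, with -0.89 ± 0.16 (SE, edgeR adjusted p = 0.00166). The shares of all genes tested at both thresholds were 6.60% lower and 2.24% higher. On the adjusted p-value alone, 7 of the 16 fell and 1 rose, against 16.1% of all genes tested lower and 12.9% higher. The median log2FC of the list was -0.13 (-0.10 with the length trend removed, when 6 fell and 3 rose). None rose with any 1 of the 6 samples left out. Celsr1 and Celsr2 are cadherins close to Dchs1 in exon length, with 11.01 and 11.5 kb, and were looked up for that reason. They had log2FC values of -0.37 (edgeR adjusted p = 0.0326) and -0.45 (edgeR adjusted p = 0.00238), against -0.38 for Dchs1. With the length trend removed the values were -0.17 for Celsr1 (edgeR adjusted p = 0.206) and -0.24 for Celsr2 (edgeR adjusted p = 0.0162). Genes of the list with still longer exons differed from this pair. Celsr3, with 12.1 kb, had -1.44, and -1.23 with the length trend removed (edgeR adjusted p = 0.00122). Fzd3, with 12.8 kb, had 0.04 (edgeR adjusted p = 0.715), and 0.26 with the length trend removed (edgeR adjusted p = 0.0181).

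Genes with the most similar profile were sought for each member among the other genes tested with a mean of at least 1 CPM, by the root mean squared difference of log2 CPM over the 6 samples after centering each gene on its mean. For Fat1 they were Fmn1 (0.026) and Thsd4 (0.045), with 15.4 and 13.99 kb of exon. Dchs1 was nearest to Arhgap31 (0.044) and Ndrg4 (0.047), with 11.1 and 4.89 kb. Nearest to Fat4 were Zfp704 (0.045) and Diap2 (0.046), with 15.3 and 11.6 kb, and nearest to Fat3 were Kif26b (0.065) and Syn3 (0.068), with 14.7 and 12.3 kb. Fat2 was nearest to Wdr35 (0.028) and Tspyl4 (0.029), with 7.27 and 3.88 kb, and Fjx1 to Nsfl1c (0.011) and Ten1 (0.019), with 3.97 and 2.73 kb. The genes nearest to Fat1, Fat3 and Fat4 had 11.6 to 15.4 kb of exon. Those nearest to Fat2, which has 14.5 kb itself, were shorter, as was Ndrg4 for Dchs1. Whether exon length accounts for these profiles was not tested.

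Explants hold many cell types, although the modiolus and the anlage of the stria vascularis were taken off at dissection. Beside the marker counts that follow, 6.60% of all genes tested were lower and 2.24% higher at both thresholds. Besides HC markers, 7 of 10 endothelium markers were lower at a fold change over 1.5, with a median log2FC of -1.94. Their summed level nonetheless overlapped, at 294 to 333 CPM in control and 277 to 328 CPM after neomycin. Emcn, the most abundant of them, had a log2FC of 0.12 (edgeR adjusted p = 0.329). Of 10 neuron markers 4 were lower (median -0.72), among them Nefl with -1.15 (edgeR adjusted p = 0.000919). Their summed level overlapped, at 199.99 to 291 against 187 to 205 CPM. Syt1 and Stmn2, the most abundant neuron markers, had 0.37 (edgeR adjusted p = 0.0346) and 0.04 (edgeR adjusted p = 0.715). Without control replicate 3 the number of neuron markers lower was 7, and without control replicate 1 their median was -0.41. Of 6 pericyte markers 3 were lower (median -0.53, 169 to 211 against 128 to 141 CPM). Mesenchyme markers had 2 of 12 lower and 1 higher (median -0.08, 6419 to 7028 against 6697 to 6934 CPM), with Col1a1 at -1.20 (edgeR adjusted p = 0.000469) and Dcn at 0.64 (edgeR adjusted p = 0.000640). Without control replicate 2 they had 1 lower and 0 higher. Supporting cell markers had 2 of 12 lower and 0 higher (median 0.02, 2856 to 3273 against 3597 to 3718 CPM), with 1 higher when control replicate 3 was left out. On the adjusted p-value alone, 4 of these markers fell and 2 rose. S100a1, the most abundant of them with 0.694 kb of exon, had means of 1561 and 2144 CPM. Its log2FC was 0.46 (edgeR adjusted p = 0.00887), and 0.08 with the length trend removed (edgeR adjusted p = 0.492).

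Macrophage markers had 2 of 10 higher and 0 lower at that fold change (median 0.36, 177 to 228 against 240.3 to 290.2 CPM). The 2 became 0 with the length trend removed, with total counts scaling, without control replicate 1 and without neomycin replicate 2. They became 1 with the replicate block, the GC trend removed or either other filter on low counts, 1 without control replicate 2 or neomycin replicate 3, and 3 without control replicate 3 or neomycin replicate 1. Schwann cell markers had 1 of 9 higher and 0 lower (median -0.03, 519.7 to 585 against 566 to 578 CPM), and markers of the stria vascularis and melanocytes had 0 of 7 in either direction (median 0.06, 128 to 135 against 117 to 118 CPM). None of the marker genes was at 0 in every sample, and Pmp2 and Mlana did not pass the filter on low counts. The part of these cell types in the values of Fat1, Dchs1 and Fjx1 was not tested.

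**Figure D5:**
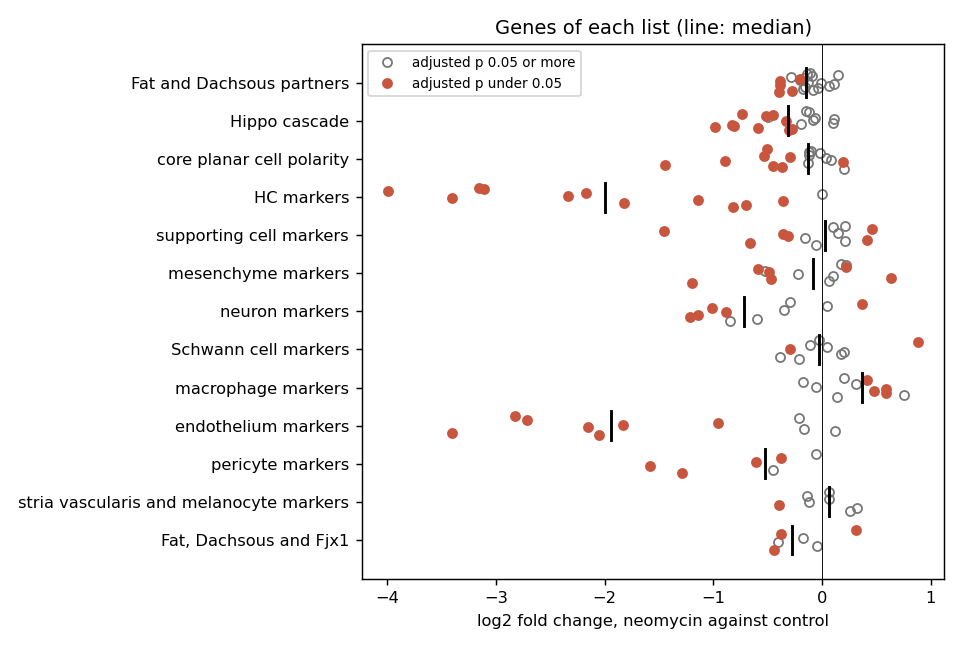
Log2FC of neomycin against control (x axis) for each tested gene of the 12 lists and of the Fat, Dachsous and Fjx1 group (y axis), filled where the adjusted p-value is under 0.05, with a line at each median. The medians of the HC and endothelium lists are the lowest, at -2.00 and -1.94, and that of the Fat, Dachsous and Fjx1 group is -0.28.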

How the data were processed

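RNA-seq was carried out on 6 pools of cochlear explants, 3 control and 3 neomycin, grouped by the sample titles. The authors called bases with Casava 1.8, trimmed reads with trimmomatic 0.23, aligned them to UCSC mm10 with Hisat2 and counted them per gene symbol with HTSeq on the UCSC annotation. The deposited values are raw counts without normalization. How strand and reads with several matches were treated is not given in the sources used here.

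From the counts, genes were filtered with filterByExpr and libraries scaled by TMM in edgeR 4.0.16 (R 4.3.3), and neomycin was compared with control by the quasi-likelihood test with Benjamini-Hochberg adjustment over the 15988 genes tested. The thresholds were an adjusted p-value of 0.05 and, for differential expression, a fold change of 1.5. Each standard error (SE) was taken from the fold change and the root of its F value. DESeq2 1.42.0 was an alternative, with other scalings, filters, a replicate block, each sample left out, and removal of each sample's trend on exon length or GC content (lowess, span 0.3). Exon lengths and coordinates are from GENCODE M21, of the same build, with a length for 99.2% of the genes tested. No library repeated another of its group (chi-square of 13.4 to 45.2 per gene on average). The code was tested on simulated data.

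The members, the gene lists and the rules for named genes were chosen with earlier results of these data known. Named genes come from the 7 members, up to 6 differentially expressed genes of a list, the most abundant markers of a list, and the 2 genes nearest in profile to each member, with later choices said to be so.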

Additional observations from a re-analysis of the deposited data

How the results depend on the processing

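The count of differentially expressed genes, 1413, was 4629 without the fold change threshold, and 3 of the 6 members passed then against 0 with it. It ran from 1037 to 1672 with each sample left out in turn. The number of members passing both thresholds was 0 under every alternative that kept both thresholds. With total counts in place of TMM, genes higher after neomycin made up 29.7% of those with an adjusted p-value under 0.05, against 44.5%.

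Removing the length trend took Fat1 to -0.18 and Dchs1 to -0.17 (log2 fold change), past the threshold no longer, and reversed Fat2 to 0.20 and Fat4 to 0.10. With the replicate number as a block as well, the values were -0.18, -0.16, 0.20 and 0.10. Over the 6 left-out samples the log2 fold changes ran from -0.57 to -0.33 for Fat1, -0.16 to 0.04 for Fat2 (0.035, 0.0054 and 0.02 without control replicate 1, neomycin replicate 2 and neomycin replicate 3), -0.58 to -0.20 for Fat3, -0.30 to -0.03 for Fat4, -0.49 to -0.17 for Dchs1 and 0.28 to 0.37 for Fjx1. The adjusted p-value rose above 0.05, so that the gene no longer passed, in 2 of these 6 fits for Fat1 and in 5 of the 6 for Dchs1. Of the ratios, Fat1 to Fat4 stayed between -0.37 and -0.21, Fjx1 to Dchs1 between 0.50 and 0.84, and Fat4 to Dchs1 between 0.14 and 0.26.

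Samples with the same replicate number had correlations of their deviations of 0.17, 0.026 and 0.095, against -0.13 to 0.032 between different numbers. Of the 6 samples, 5 correlated best with their own number. What the numbers stand for is not stated, and the main fit did not take them to pair the samples. With the replicate block alone 1465 genes were differentially expressed. On the adjusted p-value alone, 2785 genes were higher and 3229 lower, against 2058 and 2571 without the block. The log2 fold changes with the block were -0.43 for Fat1, -0.35 for Dchs1 and 0.32 for Fjx1 (edgeR adjusted p = 0.0047, 0.0118 and 0.0033). Beyond these values the cause was not tested.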
